A study of Mus musculus with 6 samples.

Results

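The normal adult mouse optic nerve was described from the control libraries of a study of Nf1 in mature oligodendrocytes. The members were the libraries whose titles mark them as controls, 3 of the 6 in the series, and they were analysed on their own. The animals were over 2 months old when they received tamoxifen, an oestrogen receptor ligand used to switch on an inducible Cre, and the nerves were collected 1 month afterwards. Control library 1 was Nf1flox/flox, with both Nf1 alleles floxed, and control libraries 2 and 3 were Nf1flox/+, with 1 floxed allele. None of the 3 carried the Cre transgene PlpCreERT2, which is active in oligodendrocytes, so they describe tamoxifen-treated nerves with intact floxed Nf1 and not untreated wild-type nerves. The labels do not say whether a library came from 1 animal or from pooled nerves, and they give neither sex nor strain. The spread between the 3 libraries may therefore be technical in part.

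The optic nerve is a central white matter tract. It holds the axons of retinal ganglion cells but not their cell bodies, so most of its RNA is made by glia. Oligodendrocytes wrap the axons in myelin and take up iron, astrocytes clear glutamate and potassium and surround vessels with water channels, and oligodendrocyte precursors and microglia are spread between them. Fibroblasts of the meningeal sheath enclose the nerve. At its rear end the nerve enters the optic chiasm, which lies under the hypothalamus.

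The 3 libraries held 21307855 to 23662698 fragment counts over 24062 gene symbols. Of these, 10.9%, 5.06% and 3.53% in libraries 1, 2 and 3 fell on Rn45s, the precursor of ribosomal RNA. Levels are given as CPM, counts scaled to a common library size after TMM scaling, and, to compare genes, as CPM per kb of exon length. In bulk tissue a difference in a gene's level may come from the number of cells of a type or from the RNA per cell, and these cannot be told apart. At 1 CPM or more in each library, 14561 genes (60.5%) were detected, and 3115 had no count in any of the 3. The 10 genes with most counts held 21.3%, 15.0% and 12.1% of all counts in libraries 1, 2 and 3, the first 100 held 30.1%, 25.2% and 22.2%, and the first 1000 held 54.4%, 51.7% and 49.3%. Rn45s is the first of these genes. Averaged over the libraries, the highest 10 held 16.1% of counts with it and 10.6% when it was left out of the counts. The median level of a detected gene was 8.28 CPM per kb.

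Per kb, the most abundant transcript of the control nerve was Ptgds, the prostaglandin D synthase secreted by meningeal cells and oligodendrocytes (chromosome 2, 25466712 to 25469749, minus strand). Its level was 27077, 24855 and 11722 CPM per kb in libraries 1, 2 and 3 (mean 21218 ± 8299, SD, n = 3). Library 3 had less than the others, and yet Ptgds ranked first in each. The iron storage protein Fth1 followed the nuclear RNA Malat1, with 3391 ± 24.3 CPM per kb for Fth1 and 3789 ± 485 for Malat1. Fth1 was among the steadiest genes, at 3414, 3365 and 3392 CPM per kb. The myelin protein Mbp was also high, at 2042 ± 98.2 CPM per kb. Among the highest 25 were also astrocyte genes (Cst3, Ndrg2, Glul), the secreted lipid carriers Apod and Apoe, the oligodendrocyte tubulin Tubb4a, the fatty acid desaturase Scd2, the iron carrier Trf and the ribosomal proteins Rpl10 and Rpl41. Avp, which encodes the hormone vasopressin, was also among them, with 913 ± 380 CPM per kb.

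**Figure D1:**
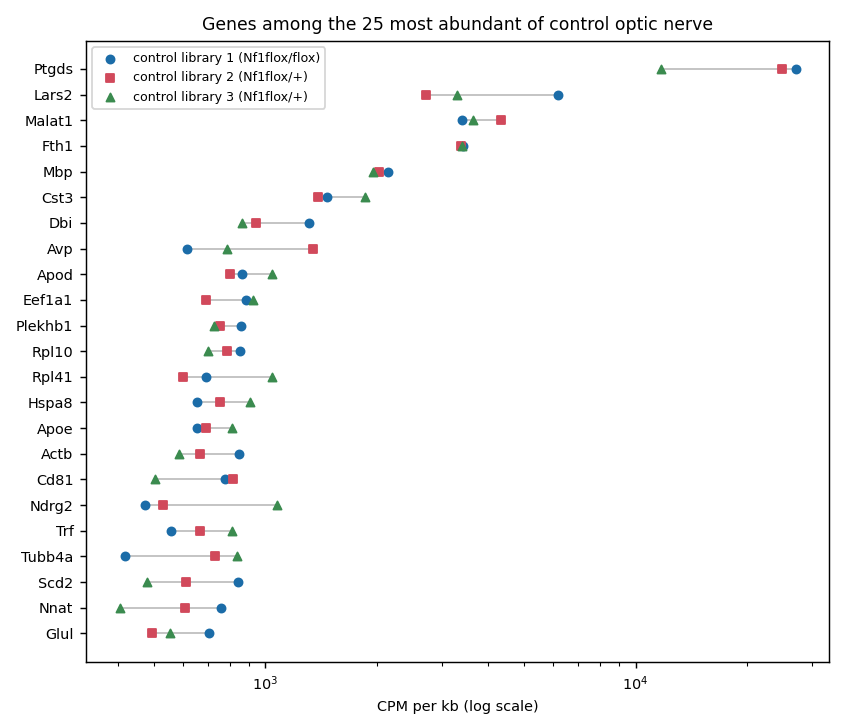
Level of genes among the 25 most abundant in CPM per kb on a log axis, with 1 marker per control library and a grey line over their range. Ptgds lies above the others shown in each library, Fth1 has the narrowest range, and Lars2, Avp, Ndrg2 and Tubb4a have wide ones.

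Lars2, the mitochondrial leucyl-tRNA synthetase, had 6161, 2722 and 3295 CPM per kb, which made it the second of the 25. The gene model Gm20594 and the microRNA gene Mir6236, which the ranking left out for their names or length, also had high counts. Gm20594 had 100630, 70843 and 56777 counts and Mir6236 had 5778, 3777 and 2230. All of these were highest in library 1, as was Rn45s, whose level was 115200, 49968 and 33708 CPM in the same order. Whether ribosomal fragments contribute to the counts of Lars2, Gm20594 and Mir6236 was not tested.

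The nerve was rich in myelin transcripts. All 16 genes of the myelin protein list were detected and each was above the median of detected genes. Together they took 2.81%, 3.15% and 3.09% of the counts in libraries 1, 2 and 3. Shares of counts here and below include Rn45s in the total, which lowers them most in library 1. Below Mbp were Cnp, an enzyme that keeps myelin channels open (441 ± 15.7 CPM per kb), the raft protein Mal (398 ± 99.1) and Mobp, a small basic myelin protein (357 ± 52.1). Mal was lower in library 1, at 283 CPM per kb, than in libraries 2 and 3, at 453 and 457. The adhesion protein Mag and the surface antigen Mog, which sit on the inner and outer faces of the sheath, were almost level with each other, at 146 and 148 CPM per kb (named after their values were seen). Of 28 other genes of mature oligodendrocytes, all were detected and 27 were above the median. Plekhb1, a membrane-associated protein, had 861, 755 and 725 CPM per kb, Enpp2, which makes lysophosphatidic acid, had 445, 410 and 357, and Car2, a carbonic anhydrase, had 311, 417 and 410. The defining oligodendrocyte marker Mbp had 14416, 13631 and 13105 CPM, so each library carried the marker that white matter should hold.

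The lipid and iron supply of myelin was also expressed. Among 23 genes of sphingolipid and fatty acid synthesis, 22 were detected. Scd2 had 842, 612 and 479 CPM per kb, with library 1 high and library 3 low. The enzymes Ugt8a and Fa2h, which make the galactolipids of myelin, had means of 208 ± 36.1 and 195 ± 14.4. The peripheral fatty acid binder Pmp2 was the member not detected. All 23 genes of cholesterol synthesis were detected, of which Hmgcs1, an early enzyme of the pathway, was highest at 156, 102 and 78.9 CPM per kb. Trf, which oligodendrocytes secrete, had 557, 665 and 810 CPM per kb, in the opposite order of libraries to Scd2 and Hmgcs1. The light ferritin chain Ftl1 had 325 ± 61.2 CPM per kb, well below the heavy chain Fth1. Over the 3 libraries the CV (SD over mean) was 0.716% for Fth1 and 18.8% for Trf.

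Transcription factors of the lineage were present at lower levels. All 14 were detected, and 11 were above the median of detected genes. Zfp488 had 121, 143 and 120 CPM per kb, Olig1 had 92.1, 67.2 and 52.1, Myrf, the activator of myelin genes, had 54.4 ± 4.70, and Sox10 had 42.7 ± 6.13. Genes of precursors were all detected too, 20 of 20, with a median of 14.2 CPM per kb against 198 for the myelin list. Pdgfra, the growth factor receptor that defines precursors, had 25.4, 23.5 and 20.3 CPM per kb, and Ptprz1 had 64.7 ± 2.57. Bcas1, which marks oligodendrocytes in early myelination and is also a myelin gene, led the precursor list with 288, 392 and 331. Cycling genes were low: 17 of 20 were detected, with a median of 1.14 CPM per kb, and Cdk1, Aurkb and Ccnb1 missed the detection level in at least 1 library.

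**Figure D2:**
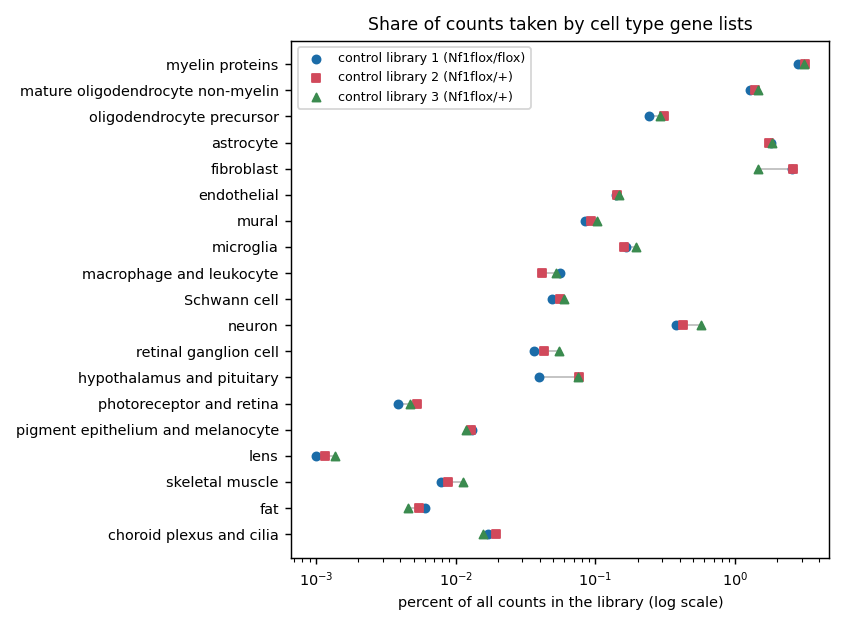
Percent of all counts, Rn45s included, taken by each cell type gene list on a log axis, with 1 marker per control library. Shares are not corrected for gene length or for the number of genes in a list, and Rn45s lowers them most in library 1. Myelin proteins take 2.81% to 3.15%, the fibroblast list falls from 2.57% to 1.44% in library 3, and lens, photoreceptor, muscle and fat genes each take 0.0112% or less.

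Astrocyte transcripts formed the other large glial share, 1.79%, 1.75% and 1.82% of counts, and all 28 genes of the list were detected. Cst3, a secreted protease inhibitor that microglia also make, had 1463, 1390 and 1852 CPM per kb. Glul, which turns glutamate into glutamine, had 702, 493 and 551 CPM per kb. Ndrg2 went the other way, at 471, 528 and 1076 CPM per kb. The filament gene Gfap had 291, 340 and 324 CPM per kb, and the water channel Aqp4 had 119, 167 and 145. Both astrocyte markers were therefore present in every library, with a CV of 7.90% for Gfap and 16.6% for Aqp4. Of 25 genes linked to reactive astrocytes, 23 were detected, with a median of 9.90 CPM per kb, near that of all detected genes. Vim, an intermediate filament, led them with 177, 259 and 253, and the exceptions were Lcn2 and Ptx3.

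Connexins of both glial partners were measured. Of 23 gap junction genes 12 were detected, beside 60.5% of all genes. Gjb6 (115 ± 19.2 CPM per kb), Gja1 (99.2 ± 30.5) and Gjb2 (60.5 ± 13.2) are astrocyte connexins, whereas Gjc3 and Gjb1 belong to oligodendrocytes. Gja1 had 132, 93.2 and 72.0 CPM per kb and Gjb1 had 56.0, 37.3 and 24.4. Both were highest in library 1 and lowest in library 3, whereas Gjc3, at 98.3, 124 and 116, was lowest in library 1.

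Genes of the sheath and vessels were also detected. The fibroblast list took 2.57%, 2.57% and 1.44% of counts, of which most was Ptgds; without it, a choice made after seeing the data, the list took 0.512%, 0.542% and 0.456%. All 27 of its genes were detected. Mgp, an inhibitor of calcification made by fibroblasts and vessel walls, had 442, 410 and 348 CPM per kb, the growth factor Igf2 had 388, 383 and 247, the proteoglycan Dcn had 188, 155 and 179, and Aldh1a2, the retinoic acid enzyme of the meninges, had 124 ± 6.87. Ptgds, Mgp and Igf2 were each lowest in library 3, and Dcn was lowest in library 2. Endothelial genes were all detected, 25 of 25, led by the glucose transporter Slc2a1 at 108, 114 and 140 CPM per kb. Of 17 mural genes 14 were detected, led by Vtn at 107, 140 and 153. Of 44 collagens 39 were detected, with Col1a2 at 46.7 ± 3.16, and Lamc1 led the laminins at 29.8 ± 3.54.

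All 25 microglial genes were detected, with 0.166%, 0.159% and 0.196% of counts. The lysosomal protease Ctss had 107, 97.4 and 112 CPM per kb, the signalling adaptor Tyrobp had 84.4, 79.4 and 89.2, and the complement subunit C1qb had 70.9, 55.3 and 62.4. Ctsd, a lysosomal protease that other cells also make, was more variable, at 156, 197 and 280. Tmem119 and P2ry12, which mark resident microglia, had 17.0 ± 0.688 and 22.0 ± 2.16 CPM per kb (named after their values were seen). Among 26 genes of other macrophages and leukocytes 17 were detected, beside 60.5% of all genes. Cd74, a partner of class II antigen presentation, had 121, 73.0 and 85.1 CPM per kb and was lowest in library 2, as were H2-Aa and H2-Ab1. The T cell gene Cd4 missed the detection level.

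Most markers of tissues outside the nerve were low, apart from neuronal and hypothalamic genes and some genes of the choroid plexus and cilia, Schwann cell and pigment lists. Of the 12 choroid plexus and cilia genes 8 were detected, and 2 were above the median of detected genes. Kcnj13 had 1211, 1916 and 1282 counts and Kl had 1332, 1524 and 982. Of 16 Schwann cell genes 7 were detected, and 2 were above the median of detected genes. Prx, a gene of myelinating Schwann cells, had 31, 29 and 22 counts. Other members had more: Cdh19 had 1189, 1631 and 1281 counts, Scn7a 872, 681 and 2515, and Drp2 1105, 1176 and 1052. Pmp22 was high, at 197 ± 13.1 CPM per kb, but is not restricted to Schwann cells. Of 17 lens genes 4 were detected, of 22 photoreceptor and retina genes 6, of 23 skeletal muscle genes 5 and of 12 fat genes 4. Of 15 genes of pigment epithelium and melanocytes 7 were detected, and 2 were above the median of detected genes. Slc26a7 led that list with 1056, 887 and 713 counts. The pigment enzyme Tyr had 35.6, 33.9 and 26.2 CPM, while Tyrp1, Dct and Pmel were not detected. Of 39 Hox genes, which mark hindbrain and spinal cord, none was detected, and the highest, Hoxd1, had 0.615 ± 0.494 CPM per kb. Of 27 forebrain and eye field factors 17 were detected, a share near the 60.5% of all genes, and their median was 1.47 CPM per kb with 4 above the median of detected genes. Otx1, Otx2, Rax, Vax2, Emx1 and Tbr1 were among those not detected. The highest members included Zic1 with 30.0, 21.4 and 14.7 CPM per kb, Nr2f2 with 13.1 ± 1.75 and Six3 with 9.40, 6.48 and 5.88. The optic stalk factor Pax2 was low, at 0.881 ± 0.0824 CPM per kb, and Vax1 had 2.14, 1.21 and 0.919 CPM (both named after their values were seen).

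Red blood cell content could not be read from haemoglobin. All 6 globin genes of the list (Hba-a1, Hba-a2, Hbb-b1, Hbb-b2, Hbb-bs and Hbb-bt) had 0 counts in each library. In the annotation used for counting, between 98.6% and 100% of the exon bases of each lie in another gene as well, so that reads there fall on more than 1 gene. Across the table, 444 genes share all of their exon bases with another gene, and 439 of them had 0 counts in all 3 libraries. A 0 for such genes is therefore not a sign of absence. Alas2, the haem enzyme of red cell precursors, had 26.4, 26.4 and 20.9 CPM.

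Neuronal transcripts were found although the nerve holds no retinal cell bodies. Of 24 neuronal genes 23 were detected, and the list took 0.378%, 0.420% and 0.569% of counts. The synaptic protein Snap25 had 201, 363 and 547 CPM, Gap43, a growth cone protein, had 65.9, 48.8 and 114, and the RNA Meg3 had 992, 1102 and 1371. All of these were highest in library 3. Among genes named after their values were seen, Gad2, the enzyme that makes GABA, had 163, 184 and 311 CPM and Slc17a7, a vesicular transporter of cortical glutamate neurons, had 0.647, 0.292 and 0.251. Of 19 retinal ganglion cell genes 13 were detected, beside 60.5% of all genes. The neurofilament Nefl had 26.3, 31.2 and 62.0 CPM, whereas Pou4f1, Pou4f2 and Pou4f3, nuclear factors of these neurons, were not detected. Per kb, Gad2 had 38.9 ± 14.2 CPM and Slc17a7 had 0.135 ± 0.0741, so a GABA gene exceeded this glutamate gene in each library.

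Hypothalamic and pituitary hormone genes varied more between the libraries than the glial lists did. Of 20 genes 12 were detected, a share near the 60.5% of all genes, with 0.0396%, 0.0765% and 0.0752% of counts. Avp (chromosome 2, 130580677 to 130582541, minus strand) had 311, 680 and 398 CPM, and its neighbour Oxt, which encodes oxytocin, had 31.0, 23.7 and 39.1. Both were present in each library. Cga, the shared subunit of pituitary glycoprotein hormones (chromosome 4, 34893779 to 34907374, plus strand), had 4, 13 and 1922 counts, or 0.199, 0.542 and 80.3 CPM. Npy, a peptide of appetite neurons, had 2.04, 1.92 and 27.3 CPM, and Chga, a protein of hormone granules, had 13.9, 16.7 and 144. Pomc and Agrp, named after their values were seen, had 5.32, 2.38 and 38.6 CPM and 1.79, 2.75 and 15.8. Sst, an inhibitory peptide, had 23.2, 4.71 and 51.8. Library 3 was therefore high for Cga, Npy, Pomc, Agrp and Sst of the list and for Chga, which is not in it, while Avp was highest in library 2. Not every member followed. Trh was lowest in library 3, at 10.9, 9.59 and 7.73 CPM, and Gal differed less, at 8.66, 8.30 and 11.3. Ghrh, by contrast, was also highest there, at 1.24, 1.29 and 4.93 CPM (these 3 named after their values were seen). The neuronal list was also highest in library 3, and whether neighbouring tissue contributes to the difference was not tested. The median CPM per kb of the myelin list was 182, 219 and 154 in the same libraries, so library 3 was not the highest there.

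**Figure D3:**
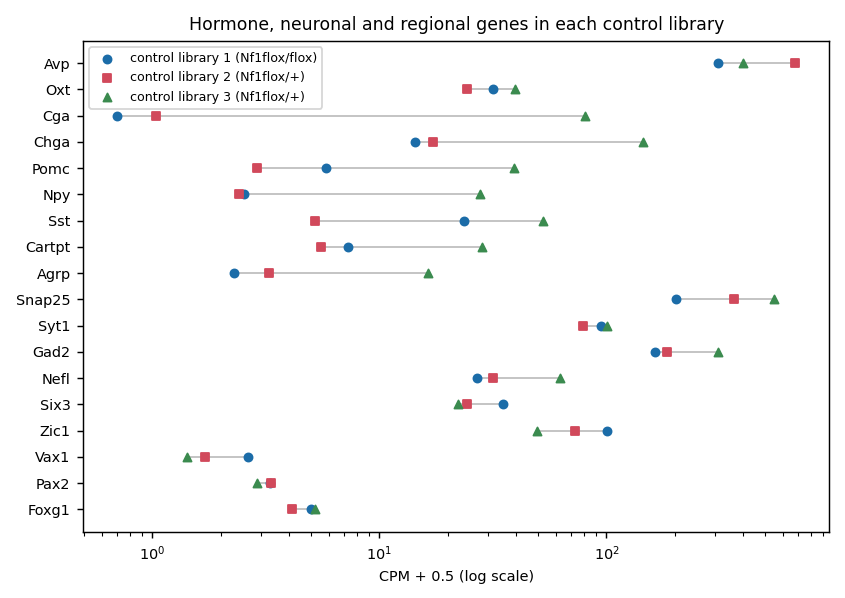
CPM plus 0.5 on a log axis for hormone, neuronal and regional genes, with 1 marker per control library; the genes were chosen for display after their values were seen. Cga, Chga, Pomc, Npy, Cartpt and Agrp have their library 3 marker far to the right of the others, whereas Avp and the regional factors Six3, Zic1 and Pax2 do not.

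Reference promoters are shown for 3 genes on which these results turn: Ptgds, the most abundant transcript, Avp, a hormone gene present in all 3 libraries, and Cga, a hormone gene high in 1. They are from RefSeq on GRCm38.p6, 250 bases before to 50 after the start, 5′ to 3′ on the gene's strand, with matches on either strand to the TATA box TATAAA, the CCAAT box and the GC box GGGCGG in capitals. The windows are chr2:25469700-25469999 for Ptgds, chr2:130582539-130582838 for Avp and chr4:34893529-34893828 for Cga.
Ptgds: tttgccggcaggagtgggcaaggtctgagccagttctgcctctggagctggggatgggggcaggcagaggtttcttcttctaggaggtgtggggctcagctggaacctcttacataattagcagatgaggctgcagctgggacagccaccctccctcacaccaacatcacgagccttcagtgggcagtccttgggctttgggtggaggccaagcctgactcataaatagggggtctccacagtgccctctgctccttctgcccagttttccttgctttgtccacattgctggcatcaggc
Avp: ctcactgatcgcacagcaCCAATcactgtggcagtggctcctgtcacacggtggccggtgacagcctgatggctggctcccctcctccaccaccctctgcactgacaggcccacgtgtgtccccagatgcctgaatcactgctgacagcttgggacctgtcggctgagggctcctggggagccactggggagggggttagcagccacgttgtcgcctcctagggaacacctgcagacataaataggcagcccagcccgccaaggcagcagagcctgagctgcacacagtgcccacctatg
Cga: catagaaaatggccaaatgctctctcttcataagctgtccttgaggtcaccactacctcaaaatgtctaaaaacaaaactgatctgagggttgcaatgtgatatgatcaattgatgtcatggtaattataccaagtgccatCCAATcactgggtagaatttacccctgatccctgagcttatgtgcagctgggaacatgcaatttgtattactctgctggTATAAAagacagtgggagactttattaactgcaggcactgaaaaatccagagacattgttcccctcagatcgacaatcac
Cga holds TATAAA, first base 30 before the start, and CCAAT, first base 109 before it. Avp holds CCAAT with its first base 232 before the start, and the Ptgds window holds none of the 3 motifs.

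The share of promoters with these motifs was compared between abundant genes, all genes and detected genes. Promoters were found by symbol or synonym for 73 of the 100 genes highest in CPM per kb, 91 promoters in all, and for 17851 of the 24062 genes in the files, 21538 promoters. TATAAA was in 14.3% of the former and 12.3% of the latter, CCAAT in 35.2% and 38.3%, and GGGCGG in 49.5% and 46.8%. Among promoters of detected genes the shares were 7.38% for TATAAA, 37.2% for CCAAT and 60.0% for GGGCGG. In the highest 300 genes GGGCGG was in 57.9% and CCAAT in 38.8%, and TATAAA was in 37 of 309 promoters. The differences between these sets were not tested. Matches of different motifs may overlap and were each counted, and a match describes letters, not binding.

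Most genes differed little between the 3 libraries. The median CV was 27.2% for genes of 1 to 10 CPM, 15.2% for 10 to 100, 12.1% for 100 to 1000 and 15.3% above 1000. Of the 2146 genes of mean CPM 100 or more, 825 had a CV under 10%, and 10 had one over 50%. Among the steadiest was Nisch, at 288, 285 and 285 CPM. The phosphatase genes Ppm1b and Mtmr2 and the neurotrophin receptor scaffold Kidins220 had CVs of 0.532%, 0.550% and 1.02%. These 4 and Fth1 were selected by their low spread, so their order is a description. edgeR's common biological coefficient of variation, the spread beyond counting noise, was 0.229 over 15512 genes.

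**Figure D4:**
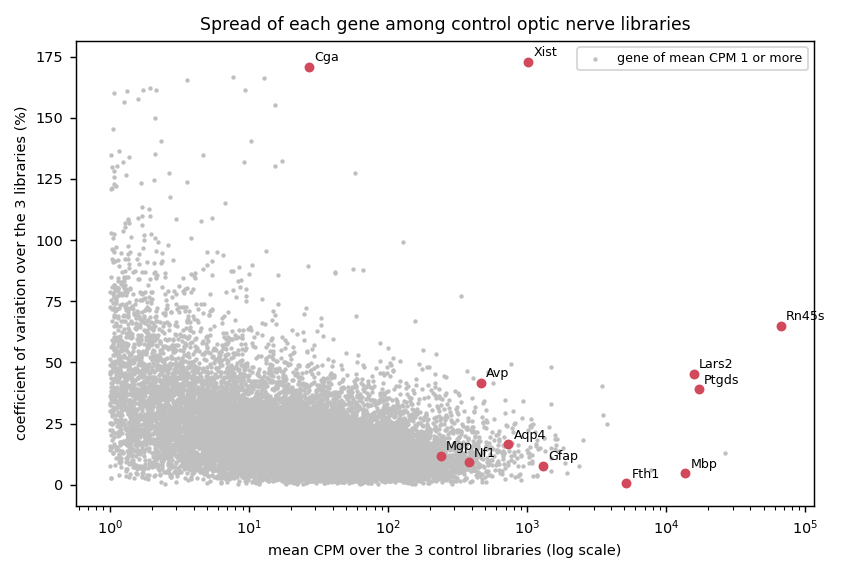
Coefficient of variation over the 3 control libraries, in percent, against mean CPM on a log axis; each grey point is a gene of mean CPM 1 or more and named genes are red. Mbp, Gfap and Fth1 lie low at 4.81%, 7.90% and 0.716%, whereas Rn45s, Lars2, Ptgds and Avp lie at 39.1% to 65.1% and Cga and Xist at 171% and 173%.

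Single libraries stood apart in few genes. Among the 10502 genes of mean CPM 10 or more, a library was called apart where it was at least 2-fold from the geometric mean of the other 2, after adding 0.5 CPM. Library 1 was higher for 56 genes (0.533%) and lower for 92 (0.876%), library 2 was higher for 13 (0.124%) and lower for 27 (0.257%), and library 3 was higher for 99 (0.943%) and lower for 43 (0.409%). A gene such as Cga passed the minimum level only through the library where it is high. The contrast sets 1 library against 2 and has no replicate check. None of the 16 myelin genes and none of the 28 other oligodendrocyte genes was apart in any library by this rule, though 2 of those 28 lay under the minimum level. At the shares over all genes given above, few calls would fall in lists of this size in any case. Of 26 astrocyte genes above it, 1, Ndrg2, was higher in library 3. Of 27 fibroblast genes, 2 (Ptgds and, named after its values were seen, the cadherin Cdh1) were lower in library 3. Of 6 hormone genes, 4 (Cga, Npy, Pomc and Sst) were higher in library 3, a list whose members reached the minimum level partly through that library.

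The X-linked silencing RNA Xist had 2.89, 3033 and 1.42 CPM in libraries 1, 2 and 3. Uty, Kdm5d, Ddx3y and Eif2s3y, which lie on the Y chromosome, each had 0 counts in library 2, and they had 58.6 to 108 CPM in the others. Library 2 thus had the sex-linked pattern of female RNA, and libraries 1 and 3 had that of male RNA. Library 3, the other Nf1flox/+ library, did not share the pattern of library 2. The CVs, the common biological coefficient of variation and the genotype contrast therefore span both sexes. Exons of Xist overlap the antisense Tsix, and the counting ignored strand. Library 2 was also high for Npsr1, the neuropeptide S receptor, with 0.896, 37.5 and 0.167 CPM, and for Siglec1, a macrophage receptor, with 6.22, 18.0 and 6.98. Both were low in libraries 1 and 3. Library 1 was high for the immediate early gene Egr1 (44.5, 16.2 and 13.4 CPM) and for Cystm1 (26.9, 10.9 and 6.89), and low for Etohi1 (2.34, 30.4 and 16.2) and Pttg1, which encodes securin (2.54, 20.9 and 24.9). Library 3 was low for Phlda1 (32.2, 21.4 and 8.77 CPM), Ifitm2 (139, 84.7 and 37.8), Fcho1 (56.6, 29.3 and 16.1) and Ovca2 (21.6, 16.4 and 5.01), whose exons overlap Dph1 on the same strand.

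Medians of some gene lists differed between libraries, while most of their members were less than 2-fold apart. The median log2 ratio of a library to the other 2 is given for members of mean CPM 10 or more, and over all 10502 such genes this median was 0.00871, 0.00226 and -0.00227 for libraries 1, 2 and 3. The 12 interferon-response genes had medians of -0.63, 0.21 and 0.41, and 3 of the 12 (H2-K1, H2-D1 and, named after its values were seen, Oasl2) were at least 2-fold lower in library 1. The antigen-presenting H2-K1 had 70.5, 122 and 174 CPM and was low in library 1. H2-D1, whose exons are 61.1% shared with other genes, had 61.7, 92.1 and 170. The 16 heat shock and chaperone genes had medians of -0.39, 0.11 and 0.46, with Hsp90ab1 at 794, 1055 and 1367 CPM. Hspa8, which led that list per kb, had 1377, 1584 and 1905. Some members were ordered otherwise: Ifitm3, a membrane protein of the interferon list, had 223, 211 and 187 CPM, and the small heat shock protein Cryab had 389, 495 and 411. Of the 16 heat shock genes, 2 (Hspa5 and Dnaja1) were at least 2-fold lower in library 1 and none was 2-fold higher in library 3. The 9 immediate early genes had medians of 0.35, -0.03 and -0.30, with 1 (Egr1) at least 2-fold higher in library 1 and 1 (Jund) at least 2-fold lower in library 3. H2-D1 was the 1 interferon gene at least 2-fold higher in library 3. Over all 10502 genes, 0.876% were at least 2-fold lower and 0.533% higher in library 1. In library 3, 0.943% were higher and 0.409% lower. Hspa5, Dnaja1, Ifitm3, Cryab and Jund were named after their values were seen.

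The medians of translation and respiration genes were highest in library 3, but single members differed. The 79 cytosolic ribosomal protein genes of mean CPM 10 or more had medians of -0.18, -0.20 and 0.43, and the 75 genes of oxidative phosphorylation had 0.04, -0.27 and 0.31. Rpl41 had 311, 268 and 468 CPM and Rpl9 had 205, 309 and 445, while Atp5b, a subunit of ATP synthase, had 1005, 1033 and 1198. Rpl10, the highest ribosomal gene per kb, had 676, 625 and 557 CPM, so it was not highest in library 3. Neither were the respiratory subunits Cox7c (150, 109 and 118 CPM), Cox6a1 (156, 124 and 144) and Cox8a (143, 99.3 and 97.5), which were highest in library 1. At least 2-fold higher in library 3 were 5 of the 79 ribosomal genes (Rpl17, Rpl11, Rpl32, Rpl13 and Rps25) and 1 of the 75 respiratory genes (Ndufb9), all 6 named after their values were seen. In library 1, 5 of the 79 ribosomal genes were at least 2-fold lower and 1 was higher, as was 1 of the 75 respiratory genes. Over all 10502 genes, 0.943% were higher in library 3, and 0.876% were lower and 0.533% higher in library 1. Of 87 ribosomal protein genes, 81 were detected; many have near-identical copies elsewhere in the genome, so their counts are uncertain. Transcript length moved with the same libraries: the genes with the shortest exons (327 to 2182 bases) had medians of -0.02, -0.08 and 0.12, and those with the longest (4987 bases or more) had 0.01, 0.05 and -0.06. The part of length in the ribosomal and respiratory shift was not tested. These medians describe the libraries, since no member list was tested.

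**Figure D5:**
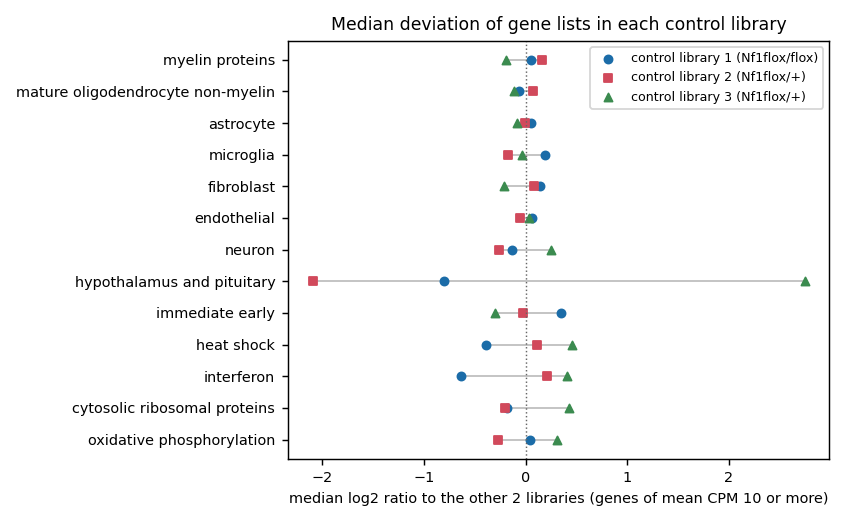
Median log2 ratio of each control library to the other 2 for gene lists, over members of mean CPM 10 or more; the dotted line marks no difference. Hormone genes spread from -2.09 to 2.75, interferon genes from -0.63 to 0.41, and the astrocyte and endothelial lists lie near the line. The hormone medians rest on 6 genes, some of which (Cga, Npy and Pomc) reached the minimum level only through library 3.

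Nf1 itself, which encodes neurofibromin, a protein that switches off Ras, had 396, 402 and 339 CPM (chromosome 11, 79339892 to 79581609, plus strand, 58 exons). Per kb it had 33.4, 34.0 and 28.6 CPM, the highest of 14 Ras regulators, all of which were detected. Spred1, its partner at the membrane, had 25.3 ± 4.91 CPM per kb, and the related Ras GTPase activators Rasal2, Rasa3 and Rasa1 had 20.6 ± 1.43, 18.9 ± 1.28 and 17.7 ± 1.00. Spred1 reached 30.9 CPM per kb in library 1, above the 28.6 of Nf1 in library 3, so the ranges of these neighbours in the order overlapped. The libraries also allowed the Nf1flox/flox control to be set against both Nf1flox/+ controls. With edgeR's quasi-likelihood test, the log2 difference of Nf1 was 0.09 (SE 0.23, adjusted p = 0.925). Having 1 library against the others limits this test, and it compares libraries rather than genotypes. The Nf1flox/+ libraries also differed from each other in sex-linked genes, so the spread within that group includes sex.

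Across the 17239 genes tested in that contrast, 1 (0.0058%) had an adjusted p under 0.05 by edgeR's quasi-likelihood test, and 1456 had an unadjusted p under 0.05. It was the gene model Gm3893 (chromosome 4, 41889795 to 42233950, plus strand), with 864, 40 and 37 counts. Its log2 difference was 4.74 (SE 0.31, adjusted p = 0.000774 by edgeR), higher in library 1 than in either of the others. As the Nf1flox/flox side is 1 library, only the other 2 give a spread within a group. edgeR moderates that spread across all genes tested, and library 1 is assumed to vary like the others. The SE given is the size of the log2 difference over the square root of the test's F. Pttg1 had the next smallest p, with a log2 difference of -3.17 (SE 0.37) and an adjusted p of 0.0693 by the same test. DESeq2 called 22 genes, 7 higher and 15 lower in library 1, among them Gm3893, Pttg1, Egr1 and Mt1. DESeq2 tested 20947 genes, so its filter differed as well as its model, and limma-voom on the 17239 genes called 1.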

How the data were processed

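Optic nerve RNA of 3 control libraries was analysed; the study's other 3 libraries entered only 1 alternative scaling. Per the labels' protocols, total RNA was amplified with NuGEN Ovation RNA-Seq v2 and made into Nextera XT libraries. The deposited tables hold raw counts of fragments for each gene. The authors counted read pairs on exons with featureCounts 1.4.6-p4 and an mm10 gene annotation, ignoring strand, per the file headers. Alignment used TopHat, per the submitters' processing notes; its version is not given in the sources used here. Amplification copies are not independent molecules. No gene names starting with mt- are in the files.

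Libraries were scaled by TMM (edgeR 4.0.16, R 4.3.3) over the controls. The libraries differed from each other beyond sampling noise (chi-square per degree of freedom 48.2 to 121, on raw counts with Rn45s included). Each was counted as 1, and this spread alone does not show whether the libraries came from separate animals. Library 1 differed from the others in its labelled Nf1 alleles, and library 2 from library 3 in sex-linked genes. The 3 were therefore not repeats of 1 RNA sample, though pooling within a library remains unknown. Means, SDs and CVs are over 3 libraries, and gene lists (44) were summarised by counts, shares and medians without a test. The genotype contrast used edgeR's quasi-likelihood test with filterByExpr (minimum count 10) and Benjamini-Hochberg adjustment over all genes tested. Tested on simulated counts for that contrast (17239 genes), it called 70.7% of 4-fold changes at a simulated coefficient of variation of 0.1 and 35.7% at 0.3, with 0 and 11 false calls. DESeq2 1.42.0 and limma-voom (limma 3.58.1) were alternatives, as were other scalings, filters and thresholds and leaving out each library.

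Members and lists were chosen with earlier results of these data known. Named genes were the 25 highest in CPM per kb with exons of 300 bases or more and a name that is not a gene model or small RNA, up to 5 per list by CPM per kb, the 6 highest and 6 lowest in each library, the 10 lowest CVs above 100 CPM, the markers, Nf1, Rn45s, sex-linked genes and genotype calls. Others are said to have been named after their values were seen; list members that were not detected, and Gm20594 and Mir6236, are such too, and some genes the rule takes are not reported here.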

Additional observations from a re-analysis of the deposited data

How the results depend on the processing

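No paired analysis was made, because the 3 controls are 1 group and the labels give no pairing among them. Counted without Rn45s, the 10, 100 and 1000 genes with most counts held 10.6%, 20.8% and 48.5% of counts on average, and the myelin proteins 3.23%; per kb the myelin proteins held 2.16%. The biological coefficient of variation was 0.277 without a filter and ranged from 0.201 to 0.268 when leaving out a library. Genes 2-fold apart, given as higher and lower for libraries 1, 2 and 3, were 233 and 396, 96 and 129, and 386 and 212 at mean CPM 1 or more; 16 and 21, 1 and 7, and 29 and 9 at mean CPM 50 or more; and 514 and 609, 118 and 211, and 709 and 488 at 1.5-fold. Scaling by total counts gave 30 higher and 159 lower in library 1 and 155 higher and 25 lower in library 3. It moved the median of all genes to -0.12 and 0.09 there. On that scale the library 1 medians turned from 0.05 to -0.07 for myelin and 0.10 to -0.03 for cholesterol synthesis. That of oxidative phosphorylation turned from 0.04 to -0.09. The interferon, heat shock, neuronal and hormone lists kept their signs in libraries 1 and 3. Some of the hormone genes reached the minimum level only through library 3. The genotype contrast called 4 genes with total counts, 0 without a filter (960 at unadjusted p under 0.05) and 22 with DESeq2. The cause of these changes was not tested. Of the alternatives to main values 55 stayed within the limits set and 32 moved past them, and for single genes and other lists 228 stayed and 50 moved. The log2 difference of Nf1 between library 1 and the others turned from 0.10 to -0.02 without library 3. The number of libraries, 3, limits every spread given.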
